A study of Mus musculus with 40 samples.

Results

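Transcripts of 9 core genes of the Hedgehog pathway were measured in 4 cell populations of the mouse mammary gland: the ligand genes Shh and Ihh, the receptor genes Ptch1, Hhip and Gas1, the signal transducer gene Smo, and the transcription factor genes Gli1, Gli2 and Gli3. The 9 genes were chosen by name, and all 9 were found among the 25044 genes of the adult count table and the 24268 genes of the pubertal table (23180 genes were in both). Luminal cells, basal cells, adipocytes and fibroblasts came from the 3rd and 4th mammary glands of wildtype FVB/N females, either pubertal (34 to 36 days) or adult virgins of 14 to 16 weeks staged as proestrus, estrus, metestrus or diestrus. No transgene, knockout or hormone treatment was used. Each library was polyA-selected bulk RNA from a pool of 4 pubertal or of 2 to 3 adult mice, with 2 pools per cell type and stage and 40 libraries in all. Luminal and basal cells and fibroblasts were sorted on EpCAM and CD49f after removal of CD45, CD31 and Ter119 positive cells, so that fibroblasts are the remaining stromal gate, whereas adipocytes are the floating layer of the digest and were not sorted.

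Hedgehog ligands are secreted proteins that bind the receptor Ptch1 and so free Smo from its block. Active Smo acts at the primary cilium to keep Gli2 and Gli3 from being turned into repressors, and the activator forms switch on target genes. Gli1, Ptch1 and Hhip are themselves classic targets of the pathway, and the products of Ptch1 and Hhip hold ligand back, while Gas1 is a co-receptor that aids binding. In the embryonic mammary bud, Gli3 repressor activity is known to be needed for bud formation.

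Hhip varied widely between the cell types and Ptch1 varied little (below), so the 250 bases upstream of the RefSeq transcription start are shown for both genes, which are targets and ligand-binding receptors. Both lie on the minus strand and are printed 5′ to 3′ from RefSeq (GRCm38.p6), with every CG dinucleotide in capitals. Hhip was read from chr8:80058009-80058258 and Ptch1 from chr13:63565736-63565985. This Ptch1 start is an internal one, 7.86 kb downstream of the 5′ end of the gene in GENCODE M21, and the region upstream of that end was not examined.
Hhip: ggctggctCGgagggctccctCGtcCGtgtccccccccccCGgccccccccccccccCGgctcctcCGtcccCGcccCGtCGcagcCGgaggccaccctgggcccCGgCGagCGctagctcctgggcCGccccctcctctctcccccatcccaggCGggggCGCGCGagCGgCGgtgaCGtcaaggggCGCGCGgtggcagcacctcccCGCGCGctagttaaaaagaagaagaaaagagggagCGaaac
Ptch1: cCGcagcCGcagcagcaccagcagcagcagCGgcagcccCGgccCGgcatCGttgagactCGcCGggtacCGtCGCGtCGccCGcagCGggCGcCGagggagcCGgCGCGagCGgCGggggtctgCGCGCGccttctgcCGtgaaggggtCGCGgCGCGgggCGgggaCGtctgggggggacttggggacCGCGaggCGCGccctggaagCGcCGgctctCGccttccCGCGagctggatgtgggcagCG
The Hhip stretch held 28 CG dinucleotides and the Ptch1 stretch 41. A window of 300 bases around the start was given for 7 of the 9 genes (all but Shh and Gli1). The Gli consensus GACCACCCA, searched on both strands, occurred in 0 of the 7 windows and in 0.253% of 32851 windows of all genes. Its core CCACCCA occurred in 0 of the 7 and in 9.30% of all windows.

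Library depth was 8991222 to 22760563 counted reads, with a median of 16983304. Levels are given as CPM, counts scaled to a common library size after TMM correction, and tests are edgeR quasi-likelihood F tests with Benjamini-Hochberg adjustment over all genes of a comparison and a threshold of 0.05. Summed marker genes of a population were highest in the libraries of that name in all 4 cases. Fibroblast libraries also held RNA of 8 endothelial markers (960 to 2589 CPM in adults) and of 8 pericyte markers (1308 to 1878 CPM), none of which averaged under 1 CPM. Adult adipocyte libraries held such RNA too, at 523 to 1707 CPM (endothelial) and 372 to 963 CPM (pericyte). They also held 214 to 509 CPM of 9 leukocyte markers, against 17.3 to 49.4 CPM in adult fibroblasts. Adipocyte libraries held a median of 5911 CPM of 10 fibroblast markers, 15% of the adult fibroblast level, and 3 of them held 279 (proestrus replicate 1), 1237 (puberty replicate 2) and 2333 CPM (diestrus replicate 2) of epidermal markers, against 2.62 to 4.41 CPM in the other 7. A lower level in these bulk libraries may mean fewer cells that express a gene or less RNA per cell, which cannot be told apart.

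Ligand transcripts were scarce in every population. Shh (chr5:28456815-28467256, minus strand, GRCm38), which encodes Sonic hedgehog, had 41 reads over all 40 libraries. Fibroblast libraries held 19 of these, basal ones 17, adipocyte ones 4 and luminal ones 1, and no library had more than 8. Pooled over the libraries this was 0.0596 CPM (exact Poisson 95% interval 0.0428 to 0.0809), an interval that covers counting error only. The 4 adipocyte reads all came from diestrus replicate 2, one of the libraries with epidermal markers. Of the fibroblast reads, 8 came from proestrus replicate 1 and 7 from estrus replicate 2, and the other replicates of these stages had 0 and 1. Ihh (chr1:74945315-74951672, minus strand), encoding Indian hedgehog, had 50 reads in all, at most 3 in a library, or 0.0727 CPM (0.0540 to 0.0959). Ihh reads were spread over 27 libraries of all 4 populations, and the pooled level was 0.0728 CPM in luminal cells, 0.0936 CPM in basal cells, 0.0452 CPM in adipocytes and 0.0763 CPM in fibroblasts, with intervals that overlap. Neither gene passed the filter of CPM over 1 in at least 2 libraries, so neither was tested. The exons of Shh overlap 2 genes on the opposite strand, and the strand setting of the read counting is not given in the sources used here. The third ligand gene Dhh (Desert hedgehog) had an adult median of 4.25 CPM in fibroblasts and 0.931 in adipocytes, against 0.132 (basal) and 0 (luminal) in the epithelium, and its exons share bases with Rhebl1 on the same strand. The sum of 8 Schwann cell markers was 219 to 545 CPM in adult fibroblasts and 139 to 309 CPM in the other adult populations. Of the 8, 0 averaged under 1 CPM in fibroblasts, against 2 (adipocyte), 6 (basal) and 5 (luminal). The part of Schwann cell RNA in the Dhh level was not tested.

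**Figure D1:**
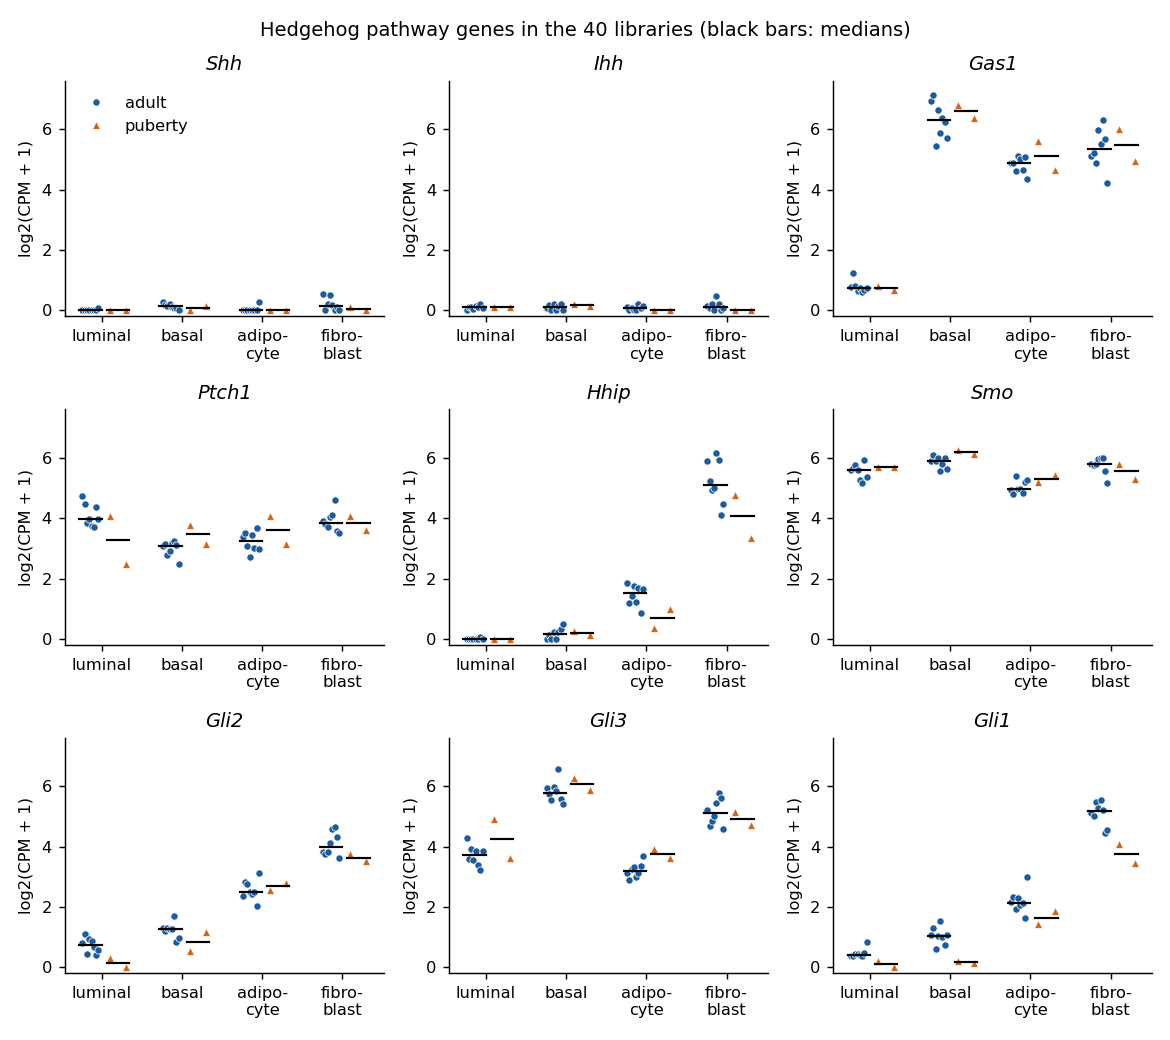
Level of each of the 9 genes in the 40 libraries, as log2(CPM + 1), by cell type; circles are adult libraries (8 per type), triangles pubertal libraries (2 per type) and black bars medians. Gli1, Hhip and Gli2 were highest in the fibroblast libraries, Gli3 and Gas1 in the basal libraries, and Shh and Ihh stayed near 0 in all of them.

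Fibroblasts stood apart for Gli1, Hhip and Gli2. Gli1 (chr10:127329882-127341974, minus strand), the activator whose transcription is a common readout of the pathway, had a lowest, median and highest adult level of 20.8, 35.0 and 45.9 CPM in fibroblasts. In adipocytes these were 2.11, 3.42 and 6.99 CPM, and in the epithelium 0.537, 1.08 and 1.90 CPM (basal) and 0.30, 0.344 and 0.781 CPM (luminal). No adult fibroblast library overlapped with a library of another type. Gli1 was higher in fibroblasts by 3.15 ± 0.20 (log2 fold change ± SE) against adipocytes, 4.95 ± 0.22 against basal cells and 6.42 ± 0.25 against luminal cells (n = 8 libraries per type, edgeR adjusted p = 1.1e-11, 4.5e-14 and 1.8e-15). It was also higher in adipocytes than in basal cells, by 1.80 ± 0.22, and in basal than in luminal cells, by 1.47 ± 0.27 (adjusted p = 1.8e-07 and 4.2e-05). Exons of Gli1 share 62 bases with Arhgap9 and 265 bases with Gm47200 on the opposite strand. Such overlaps were also found for Gas1 (589 bases, Gm48488), Gli3 (188 bases, Gm6556) and Hhip (175 bases, Gm27820), and since the strand setting is not given, reads from either gene of a pair may have been counted there.

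Hhip (chr8:79965851-80058006, minus strand), the decoy receptor, showed the widest range of the 9 genes. Its adult fibroblast level had a lowest, median and highest value of 16.1, 33.7 and 70.7 CPM, against 0.798, 1.91 and 2.57 CPM in adipocytes and 0, 0.131 and 0.424 CPM in basal cells. In the 8 adult luminal libraries 1 read was counted. By summed counts, Hhip was 22.2-fold higher in adult fibroblasts than in adipocytes (95% counting interval 19.3 to 25.6), 278-fold higher than in basal cells (180 to 456) and 7130-fold higher than in luminal cells (1279 to 281673, from 1 luminal read). The test gave 4.34 ± 0.26 against adipocytes and 8.28 ± 0.36 against basal cells (adjusted p = 5.9e-11 and 5.9e-13). Adipocyte and basal libraries did not overlap either, with a log2 fold change of 3.94 ± 0.41 (adjusted p = 7.2e-08), while basal against luminal cells rested on 20 reads against 1.

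Gli2 (chr1:118834132-119053619, minus strand), the main activator downstream of Smo, followed the same order at lower levels. Its lowest, median and highest adult levels were 11.4, 14.8 and 24.1 CPM in fibroblasts and 3.08, 4.68 and 7.79 in adipocytes, and in the epithelium 0.784, 1.41 and 2.27 (basal) and 0.343, 0.676 and 1.16 (luminal). Neighbours in this order differed by 1.67 ± 0.19, 1.91 ± 0.21 and 1.03 ± 0.23 on the log2 scale (adjusted p = 9.9e-08, 3.3e-08 and 0.00042). In the adipocyte libraries, Gli1 stood at 9.77%, Hhip at 5.67% and Gli2 at 31.5% of the fibroblast median, beside 15% for the 10 fibroblast markers, all of which averaged 1 CPM or more there. The part of fibroblast RNA in these adipocyte levels was not tested.

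Gli3 and Gas1 had another order, with basal cells on top. Gli3 (chr13:15463235-15730026, plus strand), the main repressor of the family, measured 41.4, 54.2 and 94.6 CPM (lowest, median, highest) in adult basal cells and 22.8, 33.5 and 53.5 CPM in fibroblasts. Luminal cells had 8.33, 12.2 and 18.6 CPM and adipocytes 6.43, 8.16 and 11.8 CPM. Basal and fibroblast libraries overlapped, but the mean was lower in fibroblasts by −0.68 ± 0.17 (log2, adjusted p = 0.00091). Gli3 was higher in basal than in luminal cells by 2.19 ± 0.17 and in fibroblasts than in luminal cells by 1.51 ± 0.17 (adjusted p = 3.5e-10 and 6.6e-08). Luminal cells and adipocytes differed least, by −0.56 ± 0.17 in adipocytes (adjusted p = 0.0055), a call lost without proestrus luminal replicate 1 (−0.37, adjusted p = 0.065), metestrus luminal replicate 1 (−0.41, 0.0502) or diestrus luminal replicate 2 (−0.38, 0.064).

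Gas1 (chr13:60174405-60177365, minus strand) was close to absent from luminal cells, at 0.520, 0.686 and 1.37 CPM, and reached 42.7, 78.2 and 140 CPM in basal cells (lowest, median and highest adult libraries). Fibroblasts had 17.5, 40.4 and 77.7 CPM and adipocytes 19.5, 28.7 and 33.8 CPM. The gap between the 2 epithelial populations was 6.78 ± 0.31 on the log2 scale (adjusted p = 6.0e-14), the largest in that comparison among the 7 tested genes. Basal cells exceeded fibroblasts by less, with −0.90 ± 0.22 in fibroblasts (adjusted p = 0.0011). Fibroblasts and adipocytes overlapped in part, at 0.62 ± 0.23 (adjusted p = 0.017). This last call was lost without diestrus fibroblast replicate 1 (0.38, adjusted p = 0.10), estrus fibroblast replicate 2 (0.44, 0.081), metestrus fibroblast replicate 2 (0.50, 0.058), diestrus adipocyte replicate 2 (0.47, 0.073) or metestrus adipocyte replicate 2 (0.53, 0.057).

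Ptch1 and Smo were present in all 4 populations within a narrow range. Ptch1 (chr13:63508328-63573598, minus strand), the receptor and target, had lowest, median and highest adult levels of 12.2, 14.7 and 25.5 CPM in luminal cells, 10.4, 13.4 and 23.3 in fibroblasts, 5.51, 8.41 and 11.9 in adipocytes and 4.54, 7.51 and 8.55 in basal cells. Luminal cells, which had the lowest Gli1, thus had a Ptch1 level that did not differ from that of fibroblasts beyond the spread of libraries (fibroblast minus luminal −0.21 ± 0.13, adjusted p = 0.15). Ptch1 was lower in basal than in luminal cells by −1.21 ± 0.13, lower in adipocytes than in luminal cells by −0.94 ± 0.13, and higher in fibroblasts than in adipocytes by 0.73 ± 0.13 (adjusted p = 5.2e-08, 1.6e-06 and 4.8e-05). Adipocytes against basal cells gave 0.28 ± 0.13 (adjusted p = 0.060). With the pool of mice as a block, which fits the design since the cell types of an adult pool came from the same mice, that difference passed (0.28, adjusted p = 0.039). It also passed with the RLE scaling (0.41, adjusted p = 0.0070), a scaling that moved the median of all genes by 0.13 in this comparison.

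Smo (chr6:29735503-29761365, plus strand), the transducer, measured 46.1, 58.4 and 67.1 CPM in adult basal cells, 34.5, 54.7 and 62.7 in fibroblasts, 34.6, 46.9 and 59.7 in luminal cells and 26.8, 30.4 and 40.8 in adipocytes (lowest, median and highest). Basal cells and fibroblasts did not differ beyond their spread (−0.10 ± 0.09 in fibroblasts, adjusted p = 0.31). Adipocytes were lower than luminal cells by −0.51 ± 0.09 and lower than basal cells by −0.83 ± 0.09, and fibroblasts were higher than adipocytes by 0.72 ± 0.09 (adjusted p = 3.7e-05, 4.8e-08 and 4.8e-07). The fibroblast excess over luminal cells was small, at 0.22 ± 0.09 (adjusted p = 0.036). It was lost without any one of 5 libraries: diestrus fibroblast replicate 1 (0.16, adjusted p = 0.12), estrus fibroblast replicate 2 (0.20, 0.073), metestrus fibroblast replicate 2 (0.22, 0.053), proestrus fibroblast replicate 1 (0.21, 0.057) and diestrus luminal replicate 2 (0.18, 0.059). With no filter on low counts it was lost too (0.15, adjusted p = 0.31).

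In counts, 39 of the 42 combinations of 7 tested genes and 6 pairs of adult populations passed. These counts stand beside high shares over all genes tested. Fibroblasts were higher than adipocytes for 7 of 7 genes, where 39.1% of all genes were higher and 39.2% lower, with a median log2 fold change of 1.67 for the 7. Against basal cells, fibroblasts were higher for 4 and lower for 2 (37.5% and 39.5% of all genes), and against luminal cells higher for 6 and lower for 0 (40.2% and 40.9%). Adipocytes were higher than basal cells for 3 and lower for 3 (44.6% and 39.6%), and higher than luminal cells for 4 and lower for 3 (42.6% and 38.6%). Basal cells were higher than luminal cells for 6 and lower for 1 (38.3% and 35.3%). The 7 genes passed the filter in part through the populations where they are high, so these counts describe them and do not set them apart from other genes.

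Set per length, the populations differed in which gene led. In adult fibroblasts the mean level was 14.8 ± 6.57 RPKM (SD, n = 8) for Gas1, 9.55 ± 1.71 for Smo, 6.82 ± 1.81 for Gli1, 4.43 ± 2.19 for Hhip, 3.73 ± 1.18 for Gli3, 2.42 ± 0.716 for Gli2 and 1.01 ± 0.290 for Ptch1. In basal cells Gas1 led at 28.2 ± 11.7 RPKM, followed by Smo at 10.2 ± 1.28 and Gli3 at 5.98 ± 1.74, with Ptch1 at 0.496 ± 0.0934 and Gli1, Gli2 and Hhip lower still. In luminal cells Smo led at 8.20 ± 1.48 RPKM, with Gli3 at 1.29 ± 0.337 and Ptch1 at 1.18 ± 0.341 within each other's spread. Among the Gli genes, fibroblasts were thus the only one of the 4 populations where Gli1 had a higher mean RPKM than Gli3. Adipocytes had 0.881 ± 0.174 RPKM of Gli3 and 0.748 ± 0.290 of Gli1, within their spread.

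Over the 32 adult libraries, Gli1 and Hhip moved most alike of the 21 pairs of tested genes (Pearson r of log2(CPM + 1) 0.98), followed by Gli1 and Gli2 (0.96) and Gli2 and Hhip (0.93). Ptch1 had r of 0.18 with Gli1 and of −0.54 with Gas1. These values mostly restate the 4 cell types, which the 32 points share in groups of 8. Of all genes, C1qtnf2, Tspan11 and Gdf10 were most like Gli1 (r 0.99, 0.98 and 0.98), Gfpt2, Vit and Clec11a most like Hhip (0.99 each), and Pdgfra, a fibroblast marker, Cpxm1 and Frem1 most like Gli2 (0.98 each). Fam129a, Ntng2 and Lrrc8c were most like Gas1 (0.98, 0.97 and 0.97), and Glce, Gemin5 and Ddx21 most like Gli3 (0.97, 0.96 and 0.95). Likeness was lower for Ptch1 (Med12, 0.89, Cd47 and Rnf185, 0.87 each) and Smo (Itgb5, 0.89, Fam53c and Fam83f, 0.88 each).

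The order of the populations could be measured again in the 2 pubertal pools, which were sequenced in a run of their own. Gli1 in pubertal fibroblasts was 15.9 and 9.92 CPM, against 1.72 and 2.62 CPM in adipocytes, 0.153 and 0.103 (basal) and 0.167 and 0 (luminal). Hhip was 26.5 and 9.17 CPM in fibroblasts, 0.296 and 1.0 in adipocytes and 0.204 and 0.103 in basal cells, with no luminal read. Fibroblasts were the highest population for both genes in each pool. Gli1 was higher in fibroblasts by 2.60 ± 0.55 against adipocytes and 6.64 ± 0.73 against basal cells (n = 2 per type, edgeR adjusted p = 0.011 and 0.00027), and the former was lost without pubertal fibroblast replicate 1 (2.24, adjusted p = 0.086). Hhip gave 4.78 ± 0.77 and 6.86 ± 0.89 (adjusted p = 0.0047 and 0.00095), and against luminal cells it was at least 224-fold higher by summed counts (floor of 3 reads over the group). Hhip met the filter of this fit through the fibroblast libraries, where it is high. Its tests, also in the counts below, describe its levels and add no support to them.

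Of 42 pubertal combinations 21 passed. Fibroblasts were higher than adipocytes for 2 genes (28.4% of all genes passed in either direction, 11.3% higher and 17% lower), higher than basal cells for 3 (35.8%, 20.6% and 15.2%) and higher than luminal cells for 4 (52.2%, 27.1% and 25%), with 0 lower. Adipocytes were higher than basal cells for 2 and lower for 3 (40.9%, 26% and 15%), and higher than luminal cells for 4 (39.7%, 25.1% and 14.6%). Basal cells were higher than luminal cells for 3 and lower for 0 (37.2%, 18.9% and 18.3%). Gli2 was higher in fibroblasts than in basal cells by 3.81 ± 0.67 (adjusted p = 0.0027). Gas1 was again far lower in luminal cells (0.751 and 0.613 CPM) than in basal cells (111 and 82.4 CPM), a log2 difference of 7.11 ± 0.59 (adjusted p = 7.0e-05). Gli3 in basal cells (76.1 and 57.4 CPM) exceeded adipocytes (14.1 and 11.2 CPM), with −2.35 ± 0.44 in adipocytes (adjusted p = 0.0037). With the replicate number as a block, Gli3 also passed for fibroblasts against adipocytes (1.25, adjusted p = 0.018; with DESeq2 and no block 1.34, 0.020) and against basal cells (−1.09, 0.022) and Gas1 for fibroblasts against basal cells (−1.06, 0.015), while Gli2 in basal against luminal cells lost its call (2.43, adjusted p = 0.0498 without the block, 2.37 and 0.057 with it), as it did with the RLE scaling (2.40, 0.053). Adipocytes of replicate 2 came from another pubertal pool than the other 3 types, so the block is only partly one of shared mice.

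**Figure D2:**
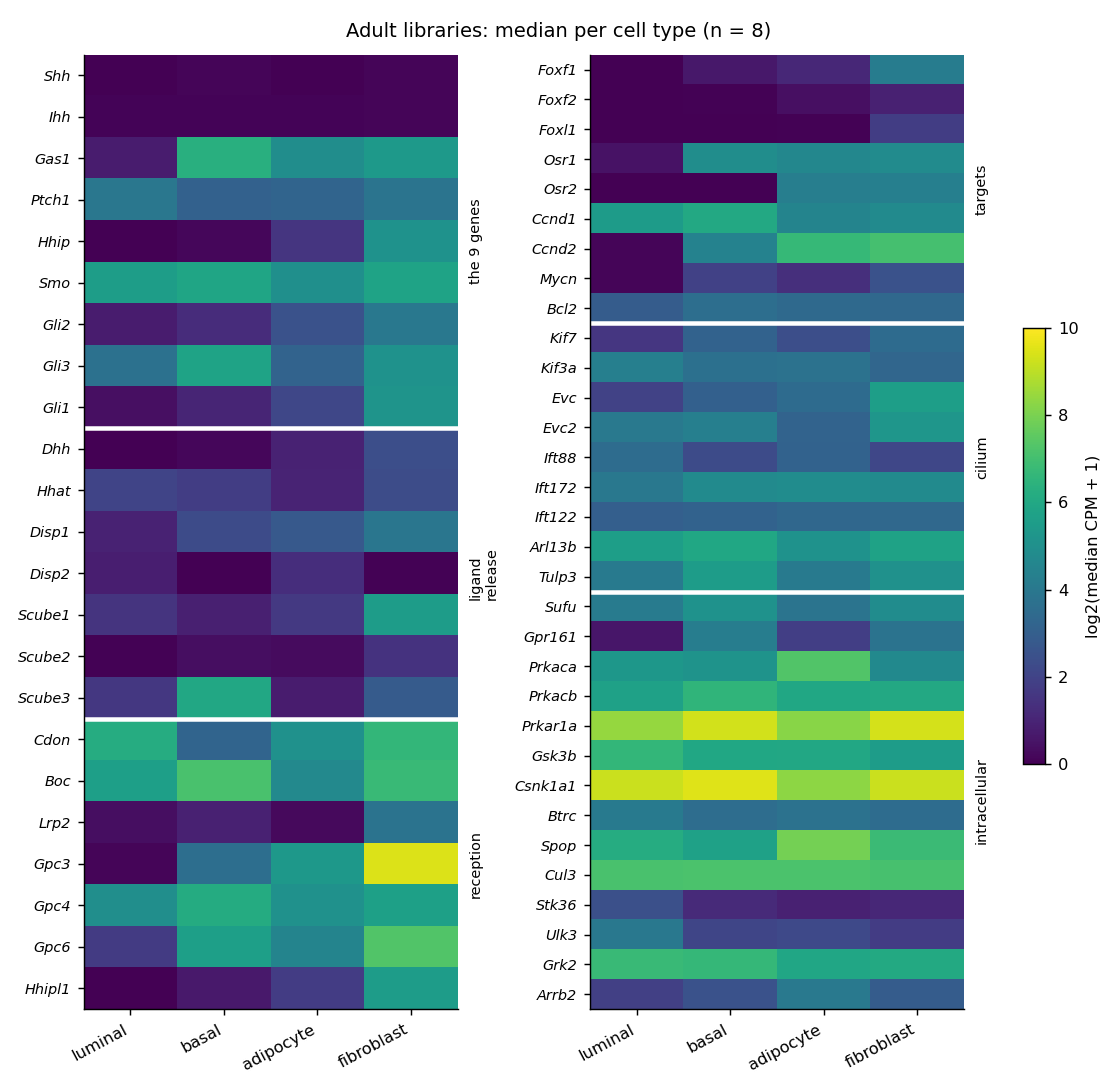
Adult median level of the 9 genes and of other pathway genes of both tables in the 4 cell types, as log2(median CPM + 1) (n = 8 libraries per type), grouped by role. Gpc3 in fibroblasts (713 CPM) was brightest among the reception genes, and several genes that are bright in fibroblasts were dark in luminal cells.

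The other pathway genes were taken from lists by role, 48 genes in all, of which 47 were tested among the adult populations. Fibroblasts were higher than luminal cells for 34 and lower for 10, where 40.2% of all genes were higher and 40.9% lower. Against basal cells they were higher for 23 and lower for 13 (37.5% and 39.5% of all genes), and against adipocytes higher for 27 and lower for 9 (39.1% and 39.2%). These shares over all genes are also the background of the lists that follow, which are described by their counts alone. Of the 8 reception genes, 8 were higher in fibroblasts than in luminal cells (median log2 fold change 5.86, and −0.018 over all genes) and 7 higher than in adipocytes (2.44, and −0.019 over all genes). Gpc3, a glypican that competes for ligand, had a median of 713 CPM in fibroblasts and 38.8 in adipocytes, against 11.4 (basal) and 0.0893 (luminal). Hhipl1, a Hhip-like gene, was at 45.2 CPM in fibroblasts against 2.45 in adipocytes, and higher there by 4.11 ± 0.27 (adjusted p = 8.9e-11). The co-receptor genes had their own patterns. Cdon was at 98.2 CPM in fibroblasts and 72.8 in luminal cells, against 8.42 in the basal population, while Boc was highest in basal cells (138 CPM), followed by fibroblasts (107 CPM).

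Of 7 genes for ligand processing and release, 6 were higher in fibroblasts than in luminal cells and 1 was lower. Scube1, a secreted helper of ligand release, had a median of 45.4 CPM in fibroblasts and 0.833 in basal cells. Scube3 went the other way, with 62.8 CPM in basal cells and 6.40 in fibroblasts, a log2 difference of −2.98 ± 0.31 in fibroblasts (adjusted p = 3.1e-08). Of the 9 tested target genes, 8 were higher in fibroblasts than in luminal cells, 6 higher than in basal cells and 5 higher than in adipocytes, with none lower in these 3 comparisons. Foxf1, a mesenchymal transcription factor, reached 17.5 CPM in fibroblasts against 1.15 in adipocytes (4.21 ± 0.26, adjusted p = 2.0e-11), whereas Osr2 had 19.1 and 18.6 CPM in the 2 (−0.12 ± 0.18, adjusted p = 0.58) and a median of 0 in both epithelial populations. Ccnd2, a cyclin, was at 131 CPM in fibroblasts and 103 in adipocytes, against 20.7 (basal) and 0.103 (luminal).

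Among 14 intracellular regulators, fibroblasts were higher than luminal cells for 6 and lower for 7, higher than adipocytes for 4 and lower for 6, and higher than basal cells for 2 and lower for 8. Adipocytes were higher than basal cells for 3 and lower for 6 (44.6% and 39.6% of all genes), and higher than luminal cells for 5 and lower for 8 (42.6% and 38.6%). Prkaca, the catalytic subunit of protein kinase A, was highest in adipocytes (157 CPM, against 26.1 in fibroblasts), as was Spop, an adaptor for Gli protein breakdown (239 CPM against 112). Gpr161, a ciliary inhibitor of the pathway, was low in luminal cells (0.535 CPM) and at 17.7 CPM in basal cells. Of 9 genes of the cilium, fibroblasts were higher than adipocytes for 5 and lower for 2, with Evc at 48.3 against 10.3 CPM. In puberty 45 of the 48 were tested, and fibroblasts were higher than luminal cells for 28 and lower for 4 (27.1% and 25% of all genes), higher than basal cells for 14 and lower for 1 (20.6% and 15.2%), and higher than adipocytes for 13 and lower for 2 (11.3% and 17%).

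Stage of the estrous cycle was compared within each population. Fibroblast Gli1 was 34.0 and 31.6 CPM in proestrus, 43.6 and 38.1 in estrus, 45.9 and 36.1 in metestrus and 20.8 and 22.3 in diestrus. Fibroblast Hhip was 57.8 and 36.6 CPM in proestrus, 29.3 and 30.8 in estrus, 70.7 and 59.3 in metestrus and 16.1 and 21.3 in diestrus. For both genes, the 2 diestrus pools lay below the other 6, and for Hhip the 2 metestrus pools lay above the other 6. Ptch1 in the same libraries was 13.9 and 12.8, 12.2 and 15.3, 16.1 and 23.3, and 10.8 and 10.4 CPM from proestrus to diestrus, again with both diestrus pools lowest and both metestrus pools highest. The 10 fibroblast markers had a similar order in these libraries, at 30243 and 19062 CPM in the diestrus pools and 33515 to 50897 CPM in the other 6, with the highest sum in metestrus replicate 1. Their part in the stage values was not tested.

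None of these differences passed the main test. Diestrus against estrus gave −0.80 ± 0.21 for Gli1 (edgeR adjusted p = 0.089), diestrus against metestrus gave −1.78 ± 0.27 for Hhip (adjusted p = 0.11), and metestrus against estrus gave 1.21 ± 0.27 for Hhip (adjusted p = 0.094). In fibroblasts 0% of all genes passed in any pair of stages or for any stage against the mean of the other 3. DESeq2 called 5 of the 42 fibroblast combinations, among them Hhip and Gli1 in diestrus against metestrus (adjusted p = 3.4e-06 and 0.0195), and edgeR gave 14 of the 42 an unadjusted p under 0.05. Over all genes, 1115 to 3048 of 13068 had an unadjusted edgeR p this low in a pair of fibroblast stages. Of all genes, DESeq2 also called far more than edgeR between stages (below). In a joint edgeR fit of the 4 cell types, Hhip in diestrus against metestrus passed as well (−1.80, adjusted p = 0.038). Across all 4 populations, edgeR called 0 of 144 combinations of gene and pair of stages, of which DESeq2 called 6 and 28 reached an unadjusted p of less than 0.05. It called 0 of 96 for a stage against the mean of the other 3, of which DESeq2 called 4 and 21 reached that unadjusted p. The share of all genes called in at least 1 pair was 0.309% in luminal cells, 0.0247% in basal cells and 0.0801% in adipocytes, and for a stage against the other 3 it was 0.471%, 1.22% and 11%. These shares, and the 0% of fibroblasts, depend on fitting each population alone, since the joint fit called far more genes between stages. The study itself reported its stage changes mainly in adipocytes and fibroblasts. With 2 pools a stage, p-values measure the spread between pools of mice. Per the study's methods, these were set as early and late within a stage where cytology and histology differed, and otherwise by cell number. That spread may thus include differences within a stage, which cannot be told apart from it.

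**Figure D3:**
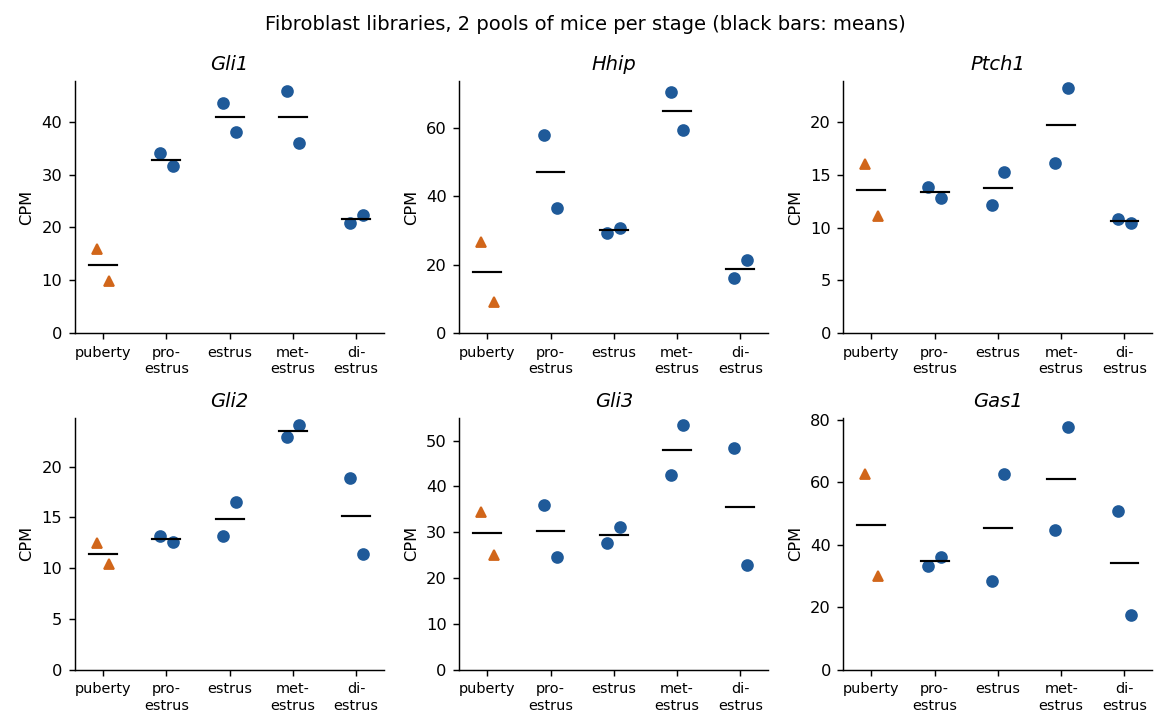
Level in fibroblast libraries in CPM (linear axes from 0) for 6 genes at puberty (triangles) and at the 4 adult stages (circles), with 2 pools per stage and bars at the mean. The diestrus pools had the lowest adult Gli1 and Hhip, and the pubertal pools lay lower still for Gli1, at 15.9 and 9.92 CPM.

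In luminal cells the gene with the clearest stage values was Ptch1, at 25.5 and 20.9 CPM in proestrus, 13.4 and 14.5 in estrus, 12.4 and 12.2 in metestrus and 19.9 and 14.8 in diestrus. Both proestrus pools lay above the other 6. Proestrus against the mean of the other stages gave 0.68 ± 0.13 (edgeR adjusted p = 0.087), and DESeq2 gave 0.68 (adjusted p = 0.012). Without diestrus luminal replicate 1 the edgeR test passed (0.75, adjusted p = 0.036). In basal cells Gas1 was 121 and 140 CPM in proestrus, 42.7 and 98.5 in estrus, 57.3 and 81.2 in metestrus and 75.2 and 51.1 in diestrus, again highest in both proestrus pools (0.89 ± 0.26, adjusted p = 0.56). Adipocyte Gli1 ranged from 2.11 to 6.99 CPM, and both values came from diestrus. The higher one, replicate 2, held 2333 CPM of epidermal markers, of which 9 of 10 genes were in the tables, and their part in this value was not tested. Without replicate 1 of that pair, which leaves that library as the lone diestrus sample, Gli1 and Gli3 passed for diestrus against the other stages (1.1 and 0.71, adjusted p = 0.029 and 0.047).

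Among the other pathway genes 0 passed between any pair of stages (47 with DESeq2), and 3 passed for a stage against the mean of the other 3. Cdon, the co-receptor, was 140 and 124 CPM in luminal proestrus and 58.7 to 78.8 CPM in the other 6 adult luminal libraries, a rise of 0.92 ± 0.12 (adjusted p = 0.022) in the stage and population where Ptch1 stood highest. The call held when either diestrus library was left out, and it was lost without any one of the other 6 libraries, where the value was 0.82 to 0.99 (adjusted p = 0.057 to 0.38). In adipocyte diestrus Gpr161 was 3.82 and 46.4 CPM against 1.59 to 3.31 CPM in the other stages (3.44 ± 0.74, adjusted p = 0.041), and without replicate 2 the value was 0.77 (adjusted p = 0.26). Csnk1a1, a casein kinase gene, was 381 and 500.2 CPM against 274 to 337 CPM (0.54 ± 0.13, adjusted p = 0.049), and 0.36 (adjusted p = 0.17) without that library. Of all genes, 11% were called for a stage in adipocytes. Diestrus replicate 2 also held 4419 CPM of 10 basal markers, against 138 to 666 CPM in the other adult adipocyte libraries, besides its epidermal markers. The part of either in these rises was not tested. Both calls were also lost without any one adipocyte library of the other stages (adjusted p = 0.092 to 0.13). Over the 8 adult pools, 9 correlations were computed for Gli1, Ptch1 and Hhip within fibroblasts and within adipocytes and for luminal Ihh with the fibroblast levels. None had an adjusted p under 0.05. Fibroblast Ptch1 and Hhip came closest, with Pearson r of 0.76 (exact permutation p = 0.0229, adjusted 0.125) and Spearman rho of 0.88 (p = 0.00724, adjusted 0.0652), and r of 0.80 without the 2 pools farthest from the median. Their deviations from the stage means had r of −0.12. That value rests on 1 replicate difference per stage, too few to tell whether the relation also held within stages. Fibroblast Gli1 and Hhip had r of 0.73 (exact permutation p = 0.0417, adjusted 0.125), and 0.08 without the 2 farthest pools, on which it rested. Adipocyte Ptch1 and Hhip had the opposite sign, with r of −0.76 (exact permutation p = 0.0295, adjusted 0.125), rho of −0.74 (p = 0.0458, adjusted 0.206), r of −0.53 without the 2 farthest pools and −0.91 over deviations from the stage means. This last value, too, rests on 1 replicate difference per stage. The permutations took the 8 pools as interchangeable, although 2 came from each stage.

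Puberty against adulthood was tested within each population as the pubertal mean against the mean of the 4 stages. Age and sequencing run cannot be told apart here, since the pubertal and the adult libraries were sequenced in separate runs. In fibroblasts Gli1 was lower in puberty (15.9 and 9.92 CPM) than in all 8 adult libraries (20.8 to 45.9 CPM), by −1.25 ± 0.21 on the log2 scale (adjusted p = 0.0067). The call was lost without pubertal replicate 2 (−0.96, adjusted p = 0.098). The 10 fibroblast markers, none of them under 1 CPM on average, summed to 79632 and 111052 CPM in puberty and to 19062 to 50897 CPM in adults, and their part in the Gli1 difference was not tested. Hhip was 26.5 and 9.17 CPM in puberty, and only the latter lay below the adult range (−0.93 ± 0.35, edgeR adjusted p = 0.093, or 0.0026 with no filter, and DESeq2 adjusted p = 0.032). Gli2, Gli3, Ptch1, Smo and Gas1 did not pass in fibroblasts, with log2 fold changes of −0.40 to 0.21.

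In basal cells Gli1 was also lower in puberty. It had 3 and 2 reads (0.153 and 0.103 CPM) in the pubertal libraries and 9 to 31 reads (0.537 to 1.90 CPM) in each adult library, a log2 fold change of −2.97 ± 0.57 (adjusted p = 0.0018). Basal Gli1 met the filter through adult libraries, where it is higher, so this test describes the difference and adds no support to it. Ptch1 was higher in puberty (12.6 and 7.91 CPM against 4.54 to 8.55), by 0.57 ± 0.21 (adjusted p = 0.046), with replicate 2 inside the adult range. That call was lost in 7 of 10 fits that left out 1 library, and without pubertal replicate 1 the value was 0.20 (adjusted p = 0.61). Without any one of proestrus replicates 1 and 2, estrus replicates 1 and 2 and metestrus replicates 1 and 2 it was 0.56 to 0.58 (adjusted p = 0.057 to 0.072). Smo was 76.3 and 68.5 CPM against 46.1 to 67.1 in adults, above all of them (0.36 ± 0.12, adjusted p = 0.028), a call lost without pubertal replicate 1 (0.29, 0.22), pubertal replicate 2 (0.45, 0.071) or metestrus replicate 1 (0.34, 0.053). In a joint fit of the 4 cell types Ptch1 (0.56, adjusted p = 0.16) and Smo (0.35, 0.072) both lost their calls. Beside these values, epidermal markers summed to 104 and 178 CPM in pubertal basal cells and 1.51 to 2.78 CPM in adult basal cells, and 3 of the 9 markers in the tables averaged under 1 CPM in puberty and 8 in adults. Their part was not tested.

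**Figure D4:**
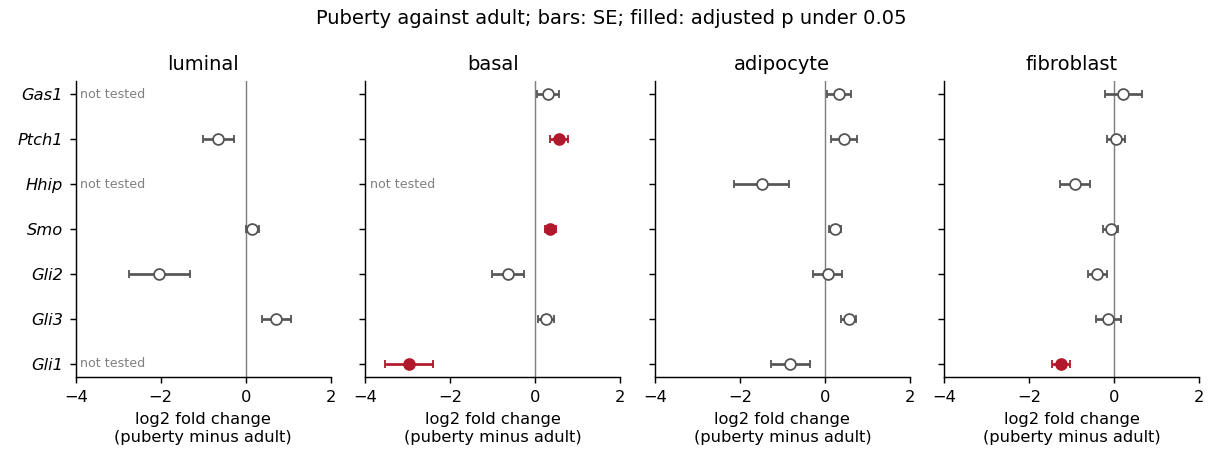
Log2 fold change of puberty minus adult (mean of 4 stages) with its SE for the tested genes in each cell type; filled points have an adjusted p under 0.05. Gli1 was lower in puberty in basal cells (−2.97), where it met the filter through adult libraries, and in fibroblasts (−1.25). Gli1, Hhip and Gas1 in luminal cells and Hhip in basal cells were under the filter.

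Adipocytes and luminal cells had no call for puberty. Adipocyte Gli1 was 1.72 and 2.62 CPM in puberty (−0.81 ± 0.46, adjusted p = 0.26), so its point estimate had the direction seen in basal cells and fibroblasts. Adipocyte Gli3 was 14.1 and 11.2 CPM against 6.43 to 11.8 in adults (0.56 ± 0.17, adjusted p = 0.072), and it passed without diestrus adipocyte replicate 2 (0.62, adjusted p = 0.044). The 2 pubertal luminal libraries disagreed, with 15.7 and 4.52 CPM of Ptch1 and 29.2 and 11.2 CPM of Gli3. Luminal Ptch1 gave −0.65 ± 0.37 (adjusted p = 0.26), and −1.87 (adjusted p = 0.00086) without pubertal luminal replicate 1. Luminal Gli2 had 6 and 0 reads in puberty and 7 to 27 in each adult library (−2.03 ± 0.73, adjusted p = 0.11), and it passed with no filter (−2.07, adjusted p = 0.028) and in a joint fit of the 4 cell types (−2.03, 0.025).

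By count, 2 of the 6 tested genes were higher and 1 lower in pubertal basal cells, where 24.8% of all genes were higher and 24.5% lower. In fibroblasts 0 of 7 were higher and 1 lower (12.5% and 6.4% of all genes). Adipocytes had 0 of 7 (6.1% higher and 6.21% lower over all genes) and luminal cells 0 of 4 (6.55% and 4.2%), with 1 unadjusted p under 0.05 in each and no call by DESeq2. That unadjusted p was reached by 4644 of 14219 genes in adipocytes and by 3644 of 12486 in luminal cells. Whether the puberty difference itself varied between populations was tested in a fit of all 40 libraries. For the 9 genes 0 of 28 combinations passed with edgeR, 7 had an unadjusted p under 0.05 and DESeq2 called 2, beside edgeR calls for 20.3% (luminal), 15.9% (basal), 22.1% (adipocyte) and 5.45% (fibroblast) of all genes. Over all genes, 3379 (fibroblast) to 5231 (adipocyte) of 15356 had an unadjusted edgeR p under 0.05. Gli1 in basal cells gave −1.68 ± 0.70 against the other populations (adjusted p = 0.11) and in fibroblasts 0.49 ± 0.43 (0.57). So a lower pubertal Gli1 was not shown to be particular to either. With the pool as a block 2 combinations passed, Ptch1 in luminal cells (−0.99 ± 0.37, adjusted p = 0.061 without the block, −1.17 and 0.013 with it) and Gli1 in adipocytes (1.27 ± 0.47, 0.055 without, 1.39 and 0.017 with it). The 28 include 4 combinations of Hhip, for which the fit gave no usable estimate (adjusted p = 1 in each), since Hhip had no reads in pubertal luminal cells.

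Of the other pathway genes tested in basal cells, 11 of 39 rose at puberty and 7 fell, shares near those over all genes (24.8% and 24.5%). Gpc3 rose by 2.51 ± 0.16, Ccnd2 by 1.32 ± 0.17, Gpc6, another glypican, by 1.28 ± 0.17 and Gsk3b, a kinase that marks Gli proteins, by 1.16 ± 0.12, and Hhat, Disp1, Cdon, Kif3a, Ift88, Spop and Cul3 rose by 0.38 to 0.86. Among those that fell, Scube3 fell by 2.31, Grk2 by 0.84 and Ift172 by 0.79 on the log2 scale, and Tulp3, Sufu and Prkar1a by 0.37 to 0.45. In fibroblasts, where 12.5% of all genes were higher and 6.4% lower, 5 of 46 rose (Scube2, Gsk3b, Cul3, Prkacb and Arl13b, by 0.81 to 1.32) and 4 fell, Hhipl1 by 1.83, Evc by 0.85, Disp1 by 0.71 and Grk2 by 0.63. Luminal cells (6.55% and 4.2% of all genes) had 0 of 33 that rose and 4 that fell, Scube3 by 3.49, Boc by 1.16, Cdon by 0.99 and Gpc4 by 0.89. Adipocytes (6.1% and 6.21% of all genes) had 1 of 43 that rose, Scube1 by 1.95 ± 0.42, and 1 that fell, Prkaca by 1.25. Fibroblast markers summed to 9264 and 18526.5 CPM in the pubertal adipocyte libraries, against 3448 to 7004 CPM in the adult ones. Adipocyte markers summed to 8054 and 3024 CPM, against 3752 to 16801 CPM in adults. The part of such a mixture in the adipocyte values was not tested.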

How the data were processed

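Bulk polyA RNA of 40 libraries was measured. Per the labels and the study's methods, the authors sequenced stranded single-end libraries with puberty and adult in separate runs, aligned reads to GRCm38 with TopHat2 2.1 and Bowtie 1.1.0, and counted them per gene with HTSeq, whose strand setting is not given in the sources used here. The deposited values are raw counts, in 1 adult and 1 pubertal table. The authors' tables of normalized values were not used. The values of 1 pathway gene are counted with its list and not reported here. Gene symbols were matched to Ensembl IDs (24726 adult and 23977 pubertal IDs), and coordinates and exon lengths came from GENCODE M21. RPKM used the summed exon length.

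Counts were fitted in R 4.3.3 with edgeR 4.0.16 (TMM factors, quasi-likelihood F test, CPM over 1 in at least 2 libraries of a fit), with Benjamini-Hochberg adjustment per comparison. Adult cell types were tested in 1 fit of 32 libraries, pubertal ones in a fit of 8, stages and puberty in 1 fit per cell type, and the difference of the puberty effect in a fit of 40. The steps were checked on simulated counts. Alternatives were RLE factors, DESeq2 1.42.0, no filter, the newer quasi-likelihood form, a replicate block (the pool of mice in the fits of 32 and 40 libraries, the replicate number in the others), a joint fit of the cell types and leaving out each library. Text names all 9 genes, pathway genes with the smallest adjusted p of a list or a call in a stage or puberty comparison, and the 3 most similar genes per member. Members and gene lists were chosen with earlier results of these data known.

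The cell types of an adult pool came from the same mice, as the study's methods state. Deviations from the group mean of 2 cell types of a pool had correlations of −0.08 to 0.30, and 9 of 24 were over 0.1.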

Additional observations from a re-analysis of the deposited data

Results flagged for a closer look

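Of 24 groups of 8 adult libraries, 3 had 1 library far from the others, by a rule that chance meets in about 1 of 20 groups. Basal Gli3 in metestrus replicate 2 was 94.6 CPM, and the next library had 61.6. Adipocyte Gli1 in diestrus replicate 2 was 6.99 CPM, against 4.08 for the next, in the library with the highest epidermal marker sum. Fibroblast Ptch1 in metestrus replicate 2 was 23.3 CPM, against 16.1 for the next.

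For 33 combinations of another pathway gene and a cell type, the difference between puberty and adult differed from its mean in the other 3 cell types (edgeR quasi-likelihood test of the difference, adjusted over all genes). In each cell type 47 such genes were tested. Of all genes, 20.3% (luminal), 15.9% (basal), 22.1% (adipocyte) and 5.45% (fibroblast) were called. The counts that follow stand beside these shares and do not set the pathway genes apart from other genes. Values are log2 differences of the 2 effects. In luminal cells Prkaca was at 0.63 and 9 genes were negative: Scube3 at −2.83, Arl13b at −1.04, Hhat at −1.02, Boc at −1.01, Prkacb at −0.86, Cdon at −0.84, Gsk3b at −0.83, Cul3 at −0.78 and Gpc4 at −0.69. In basal cells 9 were positive, Gpc3 at 2.45, Ccnd2 at 1.70, Gpc6 at 1.51, Cdon at 1.36, Disp1 at 1.03, Evc at 0.98, Hhat at 0.76, Gsk3b at 0.73 and Prkaca at 0.68, and 2 negative, Grk2 at −0.57 and Prkar1a at −0.48. In adipocytes 8 were positive, Scube3 at 2.91, Scube1 at 1.95, Boc at 1.36, Hhat at 0.88, Sufu at 0.70, Evc2 at 0.67, Grk2 at 0.65 and Tulp3 at 0.57, and 2 negative, Prkaca at −1.07 and Ift88 at −0.66. The pubertal adipocyte libraries held more fibroblast marker RNA than all adult ones. Their basal markers summed to 634 and 2605 CPM, against an adult median of 245 CPM. The part of either in these adipocyte values was not tested. In fibroblasts Prkacb was at 0.83 and Cul3 at 0.68. In this test the share of all calls that were positive was 46.7% in fibroblasts with TMM and 68.4% with RLE factors, and in adipocytes 61.9% with TMM and 46.1% with DESeq2, while the median of all genes moved by −0.11 in adipocytes with RLE factors. The count of these pathway calls ran from 22 to 50 when 1 pubertal library was left out.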

How the results depend on the processing

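The 94 combinations of a gene and a comparison followed here were those called in the main fit or under an alternative. Their 497 values under alternatives all kept their direction, which this choice favours. Fits without a library are not among these values. Counts of calls for the 9 genes moved as follows. For puberty within a population 4 became 5 with DESeq2, 6 with no filter and 3 in the joint fit. Between pairs of stages 0 became 6 with DESeq2, 11 with no filter and 1 in the joint fit, and for a stage against the mean of the other 3, 0 became 4 with DESeq2 and 9 with no filter. For the difference of the puberty effect between cell types 0 became 2 with DESeq2, 1 with the newer quasi-likelihood form and 2 with the replicate block. With no filter Shh also passed for fibroblasts and for basal cells against luminal cells (adjusted p = 0.017 and 0.024), with most fibroblast reads in proestrus replicate 1 and estrus replicate 2. For the other pathway genes, pairs of stages went from 0 to 47 with DESeq2, 64 with no filter and 44 in the joint fit, and a stage against the others from 3 to 29, 43 and 27. The cause was not tested.

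Leaving out 1 library gave 37 to 40 calls for adult cell types (39 with all), 15 to 23 for pubertal ones (21), 0 to 1 and 0 to 2 for stages (0 each), 2 to 6 for puberty (4) and 0 to 6 for the difference of the puberty effect (0), with 6 reached without pubertal luminal replicate 1. For the other pathway genes these ranges were 221 to 232, 81 to 132, 0 to 12, 1 to 7, 24 to 47 and 22 to 50. Leaving out adult libraries was not run for the last test. Where a group of 2 lost a library, its lone sample was assumed to vary like the other groups.

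Over all genes, pairs of stages gave 76 calls, and 141 with RLE factors, 11896 with DESeq2, 14672 with no filter, 12173 in the joint fit and 17 with the replicate block. A stage against the others gave 1722, and 7495, 10889, 7410 and 124 with DESeq2, no filter, the joint fit and the block. Per the study's methods, the adult pools of a stage were set as early and late where cytology and histology differed, and otherwise by cell number. Between stages the replicates share this label but no mice. Their deviations had correlations of −0.67 to 0.43, with 6 of 24 over 0.1, and the replicate block left the counts for the 9 genes at 0, 0 and 4 for pairs of stages, a stage against the others and puberty. Correlations over deviations from the stage means turned for fibroblast Gli1 and Ptch1 (0.58, and −0.90 within stages) and Ptch1 and Hhip (0.76, and −0.12). The values within stages rest on 1 replicate difference per stage. Depth limits Shh, Ihh and the epithelial Hhip: Shh had reads in 16 and Ihh in 27 of the 40 libraries, and Hhip in 1 of the 10 luminal ones.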

Other observations

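In puberty, replicate 1 had more Ptch1 and more Gli3 than replicate 2 in all 4 cell types. Ptch1 was 15.7 against 4.52 CPM in luminal cells, 12.6 against 7.91 in basal cells, 15.8 against 7.91 in adipocytes and 16.0 against 11.1 in fibroblasts. Gli3 was 29.2 against 11.2, 76.1 against 57.4, 14.1 against 11.2 and 34.4 against 25.1 CPM. Smo, the third member above 1 CPM in all 8 pubertal libraries, did not share this order. Of 10082 genes above that level in these libraries, 14.1% were higher in replicate 1 in all 4 types and 12.9% were higher in replicate 2 in all 4. These genes were chosen after their values were seen. Per the study's methods, replicate 1 was taken at 34 days of age and replicate 2 at a later day. Adipocytes of replicate 2, at 36 days, came from another pool than the other types. Day of age and pool cannot be told apart here.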
